A study of Mus musculus with 24 samples.

Results

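Transcripts of pituitary hormones were followed array by array in 24 samples of the mouse right cerebral hemisphere. The genes were Gh, Prl, Pomc, Lhb, Fshb, Tshb and Cga, which encode hormones or their subunits, together with Ghrhr and Pou1f1. All probe sets that the platform annotation gives to 1 of these 9 symbols and to no other gene were taken, which gave 12 of the 45037 probe sets that are not controls. They read 8 of the 9 genes: 4 probe sets read Gh, 2 read Pomc and 1 each reads Prl, Lhb, Fshb, Tshb, Cga and Ghrhr, while no probe set was annotated to Pou1f1. The genes were chosen because their levels stood out on single arrays of these data, so that levels and correlations across arrays are given as a description and without a test.

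The samples came from 24 female NMR-1 mice, 6 on each of 4 diets, with 1 array per mouse. The age at the start was 8 weeks and feeding lasted 2 weeks, and the sample labels name no transgene or drug treatment. Mice fed the pellet diet stayed on the food on which they had been raised, mice fed the chimpanzee diet received vegetables, fruit and yogurt, mice fed the cafeteria diet received cooked human meals, and mice fed the fast food diet received only McDonald's products. RNA was processed in 2 batches that each held 3 mice per diet, and arrays are named here by diet, labelled batch and replicate number. The values are log2 expression levels, so that a difference of 1 is a doubling in the measured signal.

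The pituitary is an endocrine gland that hangs below the hypothalamus and lies outside the cerebral hemispheres. In its anterior lobe, somatotrophs make growth hormone (Gh), lactotrophs make prolactin (Prl), corticotrophs make the precursor of adrenocorticotropin (Pomc), gonadotrophs make luteinizing and follicle-stimulating hormone, and thyrotrophs make thyrotropin. The last 3 hormones share the alpha subunit encoded by Cga and differ in the beta subunit encoded by Lhb, Fshb or Tshb. The transcription factor Pou1f1 is required for somatotrophs, lactotrophs and thyrotrophs, and Ghrhr is the receptor through which the hypothalamus stimulates growth hormone release. Pomc is also transcribed in neurons of the hypothalamic arcuate nucleus, and Tshb and Cga also in the pars tuberalis, the thin part of the gland that covers the median eminence.

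The promoters of Prl, Cga and Tshb are printed because Prl moved with Gh and Tshb moved with Cga across the arrays. The windows run from 250 bases before to 50 bases after the RefSeq gene start in build GRCm38.p6, and RefSeq sequences were matched for 7 of the 9 genes, not for Gh and Ghrhr. Prl lies at chr13:27057320-27057619 on the plus strand, Cga at chr4:34893529-34893828 on the plus strand and Tshb at chr3:102782665-102782964 on the minus strand. Capitals mark matches to TATNCAT or its reverse complement ATGNATA, a short form of the POU1F1 motif, in Prl, and to CAAGGNC or its reverse complement GNCCTTG, a short form of the motif of SF-1 (Nr5a1, the gonadotroph factor), in Cga. In Tshb no letters matched the POU1F1 motif, so that none are in capitals.
Prl: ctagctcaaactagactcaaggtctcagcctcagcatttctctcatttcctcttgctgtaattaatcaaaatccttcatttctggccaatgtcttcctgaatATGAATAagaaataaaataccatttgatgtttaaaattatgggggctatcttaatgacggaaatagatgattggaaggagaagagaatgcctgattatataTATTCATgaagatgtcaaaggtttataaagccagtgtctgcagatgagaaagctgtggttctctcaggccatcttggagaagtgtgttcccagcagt
Cga: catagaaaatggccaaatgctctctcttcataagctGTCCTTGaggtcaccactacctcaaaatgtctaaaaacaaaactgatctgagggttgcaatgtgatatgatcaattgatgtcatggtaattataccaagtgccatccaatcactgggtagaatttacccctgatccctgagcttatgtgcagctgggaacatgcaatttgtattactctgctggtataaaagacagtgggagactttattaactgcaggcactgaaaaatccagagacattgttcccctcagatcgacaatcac
Tshb: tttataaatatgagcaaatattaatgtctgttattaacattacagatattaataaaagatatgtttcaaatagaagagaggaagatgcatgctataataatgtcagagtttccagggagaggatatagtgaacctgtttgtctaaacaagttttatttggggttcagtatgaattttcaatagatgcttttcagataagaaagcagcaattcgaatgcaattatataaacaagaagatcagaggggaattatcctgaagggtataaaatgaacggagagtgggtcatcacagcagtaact
The POU1F1 motif was found in 8.84% of 32851 promoter windows, and among the 7 genes it was found in Prl, where the 2 matches began 148 and 47 bases before the gene start, and in Pou1f1 itself. The SF-1 motif was found in 17.8% of the windows. It matched in Lhb 128 and 58 bases before the start, in Cga 214 bases before it and in Prl 233 bases before it. TATAAA, searched on the gene's strand, was found in 8.32% of the windows and matched in all 7 genes. In Prl, Pomc, Lhb, Fshb, Tshb and Cga a match began between 24 and 31 bases before the start. No match of these motifs overlapped another in the windows of Prl, Cga and Tshb, whereas in Pou1f1 a POU1F1 match and a TATAAA match share bases.

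The arrays as a whole were alike, with medians between 4.02 and 4.32 and, for 23 arrays, a median correlation to the other arrays of 0.980 to 0.993. Pellet batch 2 replicate 1 stood apart, with a median correlation of 0.893, an SD over probe sets of 1.58 against 1.81 to 2.06 elsewhere, and 8.7% of all probe sets more than 1 above their median over the 24 arrays. The methods leave out 1 pellet array for RNA degradation without naming it, so that all 24 were used here. Correlations of the pituitary genes with Gh are given also without pellet batch 2 replicate 1 and cafeteria batch 1 replicate 1. Counts of called probe sets were also taken with any array left out. The gene lists' correlations with Gh and the sizes of the diet differences are given only with pellet batch 2 replicate 1 included. The labelled tissue carried its markers: over 5 neuronal genes the mean log2 level per array was between 9.97 and 11.08 on the cafeteria diet and between 9.44 and 10.98 on pellets. No detection p-values were used, and 9 of the 12 pituitary probe sets had a mean level above the median of all probe sets, 4.07. The means of Fshb, Tshb and Cga lay below it. These means include the single high arrays for which the genes were chosen. By their median over the 24 arrays, Prl (3.75) and the Pomc set 1455858_x_at (3.80) also lay below 4.07. So did the Gh sets 1460613_x_at (3.65), 1456595_x_at (3.55) and 1437522_x_at (3.37).

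Growth hormone and prolactin transcripts were high on 3 of the 24 arrays and moderately raised on 2 more. The main probe set of Gh (1460310_a_at) had a lowest, median and highest log2 level of 3.88, 4.29 and 5.52 in mice fed the chimpanzee diet and of 3.78, 4.09 and 8.26 in mice fed fast food. On the cafeteria diet these were 3.80, 3.85 and 11.65, and on pellets 3.82, 4.07 and 7.69. The highest value of each diet except chimpanzee stood far above the other 5, which overlapped between all 4 diets. The Gh signal in cafeteria batch 1 replicate 1 was 186 times its median over the 24 arrays, in fast food batch 1 replicate 1 it was 17.7 times and in pellet batch 2 replicate 1 it was 12 times. The raised chimpanzee arrays were batch 2 replicate 3 at 5.52 and batch 1 replicate 1 at 5.4. In bulk tissue, more cells of a type and more RNA per cell cannot be told apart.

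The other 3 Gh probe sets had the same 3 arrays at the top. In cafeteria batch 1 replicate 1, 1460613_x_at read 11.72, 1456595_x_at read 11.33 and 1437522_x_at read 11.54, against medians of 3.65, 3.55 and 3.37 over the 24 arrays. The 4 Gh probe sets correlated with each other at r = 0.987 to 0.998 over 24 arrays and at r = 0.976 to 0.996 without cafeteria batch 1 replicate 1. The suffix x in a probe set's name marks probes that can also match other transcripts, and all 3 of these sets carry it. Pellet batch 1 replicate 2 was more than 1 above the median in 2 of these 3 sets (0.0311% of all probe sets were), and its level in the main set was 5.00.

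Prl, the hormone of lactation, followed Gh closely. Its probe set had a lowest, median and highest level of 3.62, 3.95 and 5.42 in the chimpanzee group, 3.39, 3.66 and 7.98 in the fast food group, 3.49, 3.61 and 11.28 in the cafeteria group and 3.58, 3.80 and 7.57 on pellets. The same 5 arrays as for Gh were more than 1 above the median, and the highest, cafeteria batch 1 replicate 1, was at 185 times it. Pearson's r between Gh and Prl was 0.995 (Spearman's rho 0.923, n = 24 arrays). Without cafeteria batch 1 replicate 1 it was 0.989, which was the highest r with Gh among 18192 genes, and without pellet batch 2 replicate 1 as well it was 0.984. Among the 19 arrays whose Gh level was at most 1 above its median, Gh spanned 3.78 to 5.00, Prl spanned 3.39 to 4.23 and r was 0.785 (rho 0.844). The arrays share their normalization, and r carries no test because the genes were chosen from these values.

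**Figure D1:**
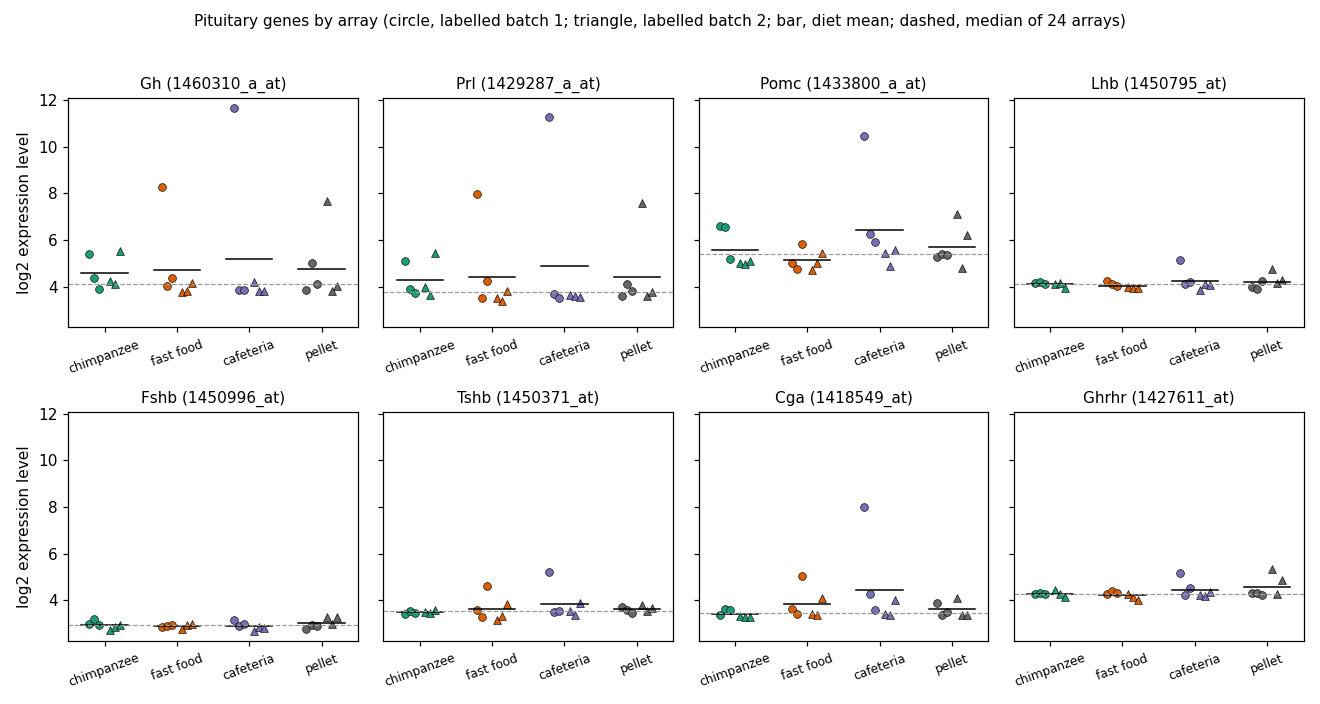
Log2 expression level (y axis) of 1 probe set per gene, by diet (x axis), with a circle or triangle for each array of labelled batch 1 or 2, a bar at the diet mean and a dashed line at the median of 24 arrays. Gh and Prl have single high arrays on the cafeteria (11.65 and 11.28), fast food (8.26 and 7.98) and pellet (7.69 and 7.57) diets, while Fshb stays between 2.70 and 3.27.

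Pomc, the precursor of adrenocorticotropin and melanocortins, was high in cafeteria batch 1 replicate 1 and followed Gh less elsewhere. Its probe set 1433800_a_at had a lowest, median and highest level of 4.98, 5.13 and 6.59 in the chimpanzee group, 4.71, 5.01 and 5.83 in the fast food group, 4.87, 5.76 and 10.47 in the cafeteria group and 4.78, 5.38 and 7.11 on pellets. The cafeteria maximum was 34 times the median over the 24 arrays. Fast food batch 1 replicate 1, the array with the second highest Gh level, was at 5.00 for Pomc and so below the Pomc median of 5.38. Chimpanzee batch 1 replicates 1 and 2 were at 6.59 and 6.54, and the latter had a Gh level of 4.36, near the Gh median of 4.11. The second probe set, 1455858_x_at, read 10.10 in cafeteria batch 1 replicate 1 and 3.81 in pellet batch 2 replicate 1, where the first probe set read 7.11. The 2 Pomc sets correlated at r = 0.904 over 24 arrays and at 0.611 without cafeteria batch 1 replicate 1. The correlation of Pomc with Gh was 0.761 over 24 arrays, 0.308 without that array and 0.002 without pellet batch 2 replicate 1 as well.

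Cga and Tshb, which together encode thyrotropin, were high on a pair of arrays that only partly overlapped with those of Gh. Cga had a lowest, median and highest level of 3.26, 3.35 and 3.62 in the chimpanzee group, 3.38, 3.52 and 5.04 in the fast food group, 3.35, 3.81 and 7.99 in the cafeteria group and 3.36, 3.44 and 4.12 on pellets. The cafeteria maximum, in batch 1 replicate 1, was 22.9 times the median over the 24 arrays, and the fast food maximum, in batch 1 replicate 3, was 2.97 times. Tshb had a lowest, median and highest level of 3.41, 3.48 and 3.59 in the chimpanzee group, 3.16, 3.45 and 4.63 in the fast food group, 3.37, 3.54 and 5.23 in the cafeteria group and 3.47, 3.63 and 3.81 on pellets. Its 2 highest arrays were the same as those of Cga, at 3.26 and 2.14 times its median.

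In fast food batch 1 replicate 3 the Gh level was 4.36 and the Prl level 4.23, so that Tshb and Cga were raised by more than 1 there without Gh or Prl. In fast food batch 1 replicate 1, with Gh at 8.26, Cga was at 3.60 and Tshb at 3.60. Over 24 arrays, r between Tshb and Cga was 0.918 (rho 0.561), and it was 0.821 without cafeteria batch 1 replicate 1 and 0.815 without pellet batch 2 replicate 1 as well. Among the 22 arrays whose Cga level was at most 1 above its median, r was 0.593 (rho 0.430). The correlation of Gh with Cga was 0.725 over 24 arrays and 0.073 without cafeteria batch 1 replicate 1, and that of Gh with Tshb was 0.660 and 0.155. Spearman's rho went from 0.145 to 0.029 for Gh with Cga without that array, and from 0.472 to 0.4 for Gh with Tshb.

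**Figure D2:**
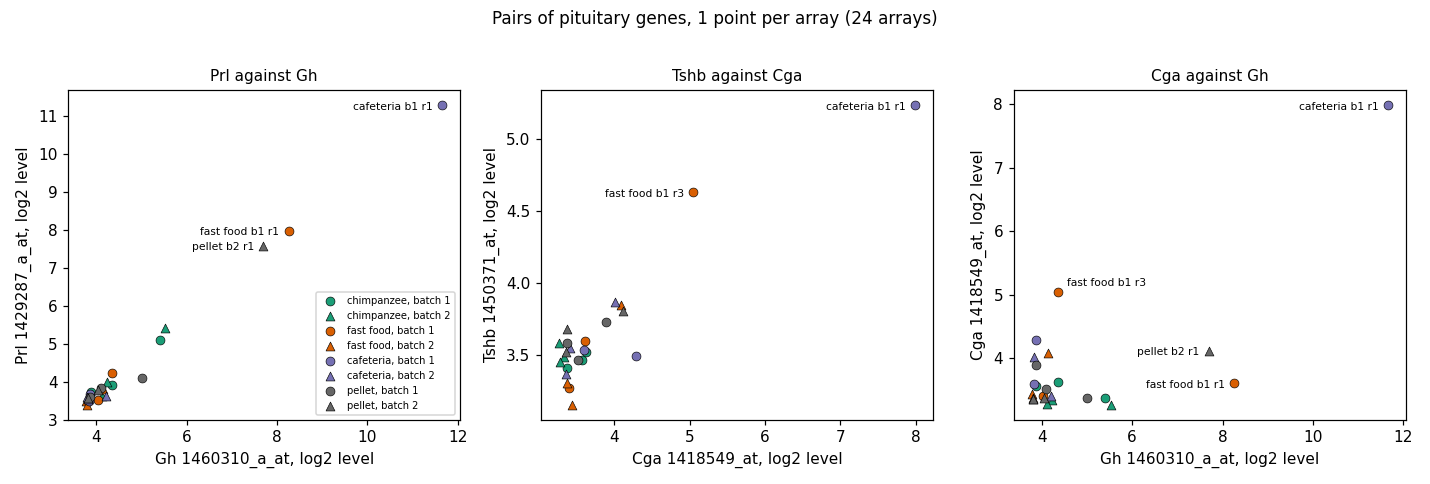
Log2 level of Prl against Gh, Tshb against Cga and Cga against Gh, with 1 point for each of 24 arrays, coloured by diet and shaped by labelled batch. Prl rises with Gh along 1 line (r = 0.995), while fast food batch 1 replicate 1 has high Gh (8.26) with low Cga (3.60) and fast food batch 1 replicate 3 has raised Cga (5.04) with low Gh (4.36).

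Lhb, Fshb and Ghrhr showed far smaller deviations. Lhb, the beta subunit of luteinizing hormone, ranged from 3.85 to 5.14, with its 2 highest values of 5.14 in cafeteria batch 1 replicate 1 and 4.77 in pellet batch 2 replicate 1. Ghrhr, the receptor of growth hormone-releasing hormone, ranged from 4.01 to 5.33, and was at 5.33 in pellet batch 2 replicate 1, 5.15 in cafeteria batch 1 replicate 1 and 4.87 in pellet batch 2 replicate 3. Fshb, the beta subunit of follicle-stimulating hormone, ranged from 2.70 to 3.27 and had its maximum in pellet batch 2 replicate 1. The correlations with Gh were 0.804 for Lhb, 0.631 for Ghrhr and 0.379 for Fshb over 24 arrays. Without cafeteria batch 1 replicate 1 and pellet batch 2 replicate 1 they were 0.145, -0.11 and -0.029. Without cafeteria batch 1 replicate 1 and fast food batch 1 replicate 1, the arrays farthest from the Gh median, they were 0.59, 0.615 and 0.476.

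Measured as the highest array minus the median of the 24 arrays, the deviation on the log2 scale was 7.54 for Gh (main set), 7.53 for Prl, 5.09 and 6.30 for the Pomc sets and 4.52 for Cga. Deviations as large were found in 0.00222% to 0.0178% of all probe sets for Gh, Prl and Pomc and in 0.02% for Cga. The deviation was 1.70 for Tshb, which 1.93% of all probe sets reached, 1.04 for Lhb (8.74%), 1.04 for Ghrhr (8.71%) and 0.34 for Fshb (61.9%). The last 3 thus had deviations that many probe sets reached. In cafeteria batch 1 replicate 1 the 8 probe sets farthest above their median, of all 45037, were the 4 of Gh, the 2 of Pomc and those of Prl and Cga. They lay 4.52 to 8.17 above it (log2), and the farthest of the other probe sets lay 3.76 above. More than 1 above the median were 10 of the 12 pituitary probe sets on that array, against 0.318% of all probe sets.

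In fast food batch 1 replicate 1 the 5 farthest probe sets were those of Gh and Prl, and 5 of the 12 pituitary sets were more than 1 above the median, against 0.169% of all. In pellet batch 2 replicate 1 the 5 farthest were again those of Gh and Prl, and 7 of the 12 were over 1, but here 8.7% of all probe sets were. In chimpanzee batch 1 replicate 1, 7 of the 12 sets (Gh, Prl and Pomc) were over 1, against 0.0888% of all, and in chimpanzee batch 2 replicate 3, 5 sets (Gh and Prl) were, against 0.0444%. In chimpanzee batch 1 replicate 2 these were the 2 Pomc sets (0.222% of all probe sets), and in fast food batch 1 replicate 3 those of Tshb and Cga (0.0488%). The raised arrays came from all 4 diets and from both labelled batches.

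**Figure D3:**
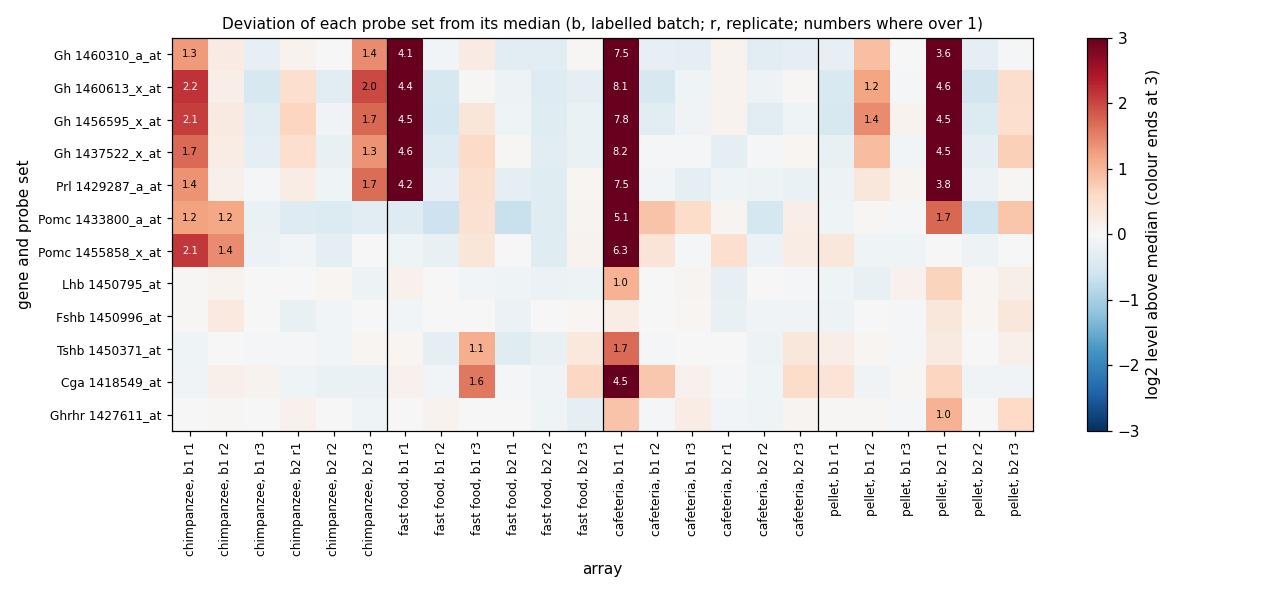
Log2 level above the median of 24 arrays for the 12 pituitary probe sets (rows) on each array (columns, b for labelled batch and r for replicate), with the value printed where it is over 1 and the colour scale ending at 3. Gh and Prl are raised together on 5 arrays, Pomc also in chimpanzee batch 1 replicate 2, and Tshb with Cga in fast food batch 1 replicate 3.

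The genes outside the set whose profile over the 24 arrays was most like that of Gh had lower correlations than Prl. The highest were Col1a1, a fibrillar collagen chain, at r = 0.777, Mylpf, a myosin light chain of fast skeletal muscle, at 0.775, Ddx31 at 0.768 and Echdc3 at 0.731, followed by Stbd1 and Erg at 0.715, Tnnc2 at 0.710, Il3 at 0.709, Sypl2 at 0.701 and Pimreg at 0.689. For Prl the same genes except Sypl2 led, with Mylpf at 0.803, Col1a1 at 0.795 and Ddx31 at 0.762, and the last of the 10 was Gpihbp1 at 0.697. Without cafeteria batch 1 replicate 1, Col1a1 had an r of 0.486 with Gh and Mylpf one of 0.657. Over all genes the median r with Gh was -0.113, and 3.58% of genes had an r of at least 0.5. The 10 genes most like Gh lay, in cafeteria batch 1 replicate 1, between 0.45 (Tnnc2) and 1.30 (Col1a1) above their medians.

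Genes that act in the pituitary without encoding its hormones were compared on the same arrays. Of 15 transcription factors of pituitary development and cell identity, 12 were measured. In cafeteria batch 1 replicate 1, 2 of them were more than 1 above their median, where 0.318% of all probe sets were. These were Lhx3, which is needed to form the anterior lobe, by 1.14, and Pitx1, a factor of the early gland, by 1.05. The list's median lay 0.117 above. Tbx19, the corticotroph factor, lay 0.436 above its median and Nr5a1 was at 3.25 with a highest level of 3.43 on any array. In fast food batch 1 replicate 1 none of the 12 was over 1. In pellet batch 2 replicate 1, 5 of the 12 were, but here 8.7% of all probe sets were over 1. Pitx1 lay 2.77, Lhx3 2.16 and Tbx19 1.73 above the median. In the whole list 3 of 12 had an r of at least 0.5 with Gh, against 3.58% of all genes. The list's median r was 0.3, against -0.113 over all genes, with Lhx3 the highest at 0.613 and Gata2 the lowest at -0.011. Lists of other tissues had higher median r with Gh, 0.448 for 4 pineal gland genes (Tph1 at 0.652) and 0.414 for 3 red blood cell genes. The mean log2 level of the list per array was 3.74 to 3.95 in the chimpanzee group, 3.72 to 3.85 in the fast food group, 3.69 to 4.10 in the cafeteria group and 3.71 to 4.81 on pellets.

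Of 9 pituitary receptors for hypothalamic and feedback signals, 0 were over 1 in cafeteria batch 1 replicate 1 and their median lay 0.049 above. Gnrhr, the gonadotropin-releasing hormone receptor, had the highest r of this list with Gh, 0.492, and Sstr2, a somatostatin receptor, the lowest, -0.354. Of 7 measured receptors of pituitary hormones and growth hormone response genes, 0 were over 1 there, and Socs2 and Igf1, which growth hormone induces in liver, were at 5.59 and 4.78 against medians of 5.74 and 4.87. Cish, another gene that growth hormone induces, was at 5.45 against a median of 5.13 and had an r of 0.482 with Gh. The prohormone processing genes, 8 of 9 measured, had a median of -0.316 from their own medians. They are strongly expressed in brain, with Cpe at a median of 12.

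Markers of other tissues were read beside these values. In cafeteria batch 1 replicate 1, where 0.318% of all probe sets were over 1, 2 of 8 genes of meninges and fibroblasts were. These were Col1a1 by 1.30 and Col1a2 by 1.25. The list's median lay 0.211 above, and Dcn (0.036), Lum (0.018), Igf2 (0.01) and Slc22a6 (-0.075) were near their medians. The list's mean level of 5.87 was the highest of the 24 arrays, whose means on the other 3 diets were between 4.97 and 5.62. Of 3 measured red blood cell genes, 1 was over 1, Alas2 by 1.14. Of 11 hypothalamic neuropeptides, 0 were over 1 and their median deviation was -0.071. Their r with Gh ran from -0.408 for somatostatin (Sst) to 0.48 for growth hormone-releasing hormone (Ghrh), which lay 0.476 above its median there and 1.23 above it in pellet batch 2 replicate 1. In fast food batch 1 replicate 3, where Tshb and Cga were raised, the median deviation of this list was 0.407. The highest were oxytocin (Oxt) at 0.89, vasopressin (Avp) at 0.833 and Cartpt at 0.792, and the lowest Trh at -0.02, Hcrt at 0.023 and Ghrh at 0.041. Chimpanzee batch 2 replicate 3 had a list median of 0.327, while Tshb deviated by 0.058 and Cga by -0.207 there. In cafeteria batch 1 replicate 1 none of the measured genes of choroid plexus (9), pineal gland (4), astrocytes (5) and oligodendrocytes (4) was over 1. Nor was any of microglia (5), endothelium (5) and cerebral cortex (4). In pellet batch 2 replicate 1, where 8.7% of all probe sets were over 1, Crx (pineal gland) lay 1.51 and Pecam1 (endothelium) 1.26 above the median. The median deviation of the 5 neuronal genes was -0.897 in cafeteria batch 1 replicate 1. It was -0.671 in fast food batch 1 replicate 1 and -1.47 in pellet batch 2 replicate 1. Chimpanzee batch 1 replicate 1 was at 0.172, chimpanzee batch 2 replicate 3 at 0.197 and fast food batch 1 replicate 3 at 0.084. The SD over probe sets was 1.82, 1.85 and 1.58 on the first 3 of these arrays and 2.02, 2.05 and 2.02 on the last 3. Strongly expressed genes of other lists were also low on the first 3. Mbp deviated by -1.005, -0.981 and -1.517, and Ttr by -0.949, -0.998 and -1.478. The part of the arrays' spread in these deviations was not tested. The part of these other cell types and of array quality in the hormone levels was not tested.

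Diets were compared by their means. For Gh (main probe set) the mean was 4.58 ± 0.70 (SD, n = 6) in mice fed the chimpanzee diet, 4.73 ± 1.74 in the fast food group, 5.20 ± 3.17 in the cafeteria group and 4.75 ± 1.50 in the pellet group. Without cafeteria batch 1 replicate 1 and pellet batch 2 replicate 1, the cafeteria mean was 3.91 ± 0.17 and the pellet mean 4.17 ± 0.48 (SD, n = 5). Prl had means of 4.29 ± 0.77, 4.4 ± 1.78, 4.87 ± 3.14 and 4.41 ± 1.56 in the same order of diets.

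Across the 4 diets 0 of the 12 pituitary probe sets passed an adjusted p under 0.05 in limma's F test with batch as a term, against 0.0222% of all probe sets, and 0 had an unadjusted p under 0.05, against 5.43% of all. Human diets against the chimpanzee diet, the question of the study, also gave 0 of 12 (0% of all probe sets; 0 of 12 at an unadjusted p under 0.05, against 2.08%). Gh was higher on the human diets by 0.38 (SE 0.93, 95% interval -1.55 to 2.31) and Prl by 0.34 (SE 0.94, interval -1.61 to 2.30), both with an adjusted p of 1 in limma. The sign turned without cafeteria batch 1 replicate 1, to -0.26 for Gh and -0.29 for Prl, and in labelled batch 2 alone the differences were -0.70 and -0.76. These intervals bound the diet effect on Gh and Prl only loosely. For Fshb the interval was -0.21 to 0.13, and for Lhb it was -0.25 to 0.32.

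The other 6 contrasts gave 0 of 12 as well, at the adjusted and at the unadjusted threshold. Of all probe sets, 0% passed at the adjusted threshold between the chimpanzee and cafeteria, chimpanzee and fast food, cafeteria and fast food, and pellet and cafeteria diets, 0.00222% between pellet and chimpanzee and 0.0222% between pellet and fast food. At the unadjusted threshold the shares of all probe sets were 1.81%, 2.2%, 1.75%, 5.29%, 9.45% and 19%. The lowest adjusted p of a pituitary probe set in limma was 0.269, for Ghrhr between pellet and fast food (0.33 higher on pellets, SE 0.17). The Ghrhr mean on pellets was 4.56, and 4.41 without pellet batch 2 replicate 1, against 4.23 on fast food. Chimpanzee minus cafeteria was -1.04 for Cga (SE 0.51, adjusted p = 1 in limma) and -0.35 without cafeteria batch 1 replicate 1. Pomc was 1.30 higher on the cafeteria than on the fast food diet (1433800_a_at, SE 0.62, adjusted p = 1 in limma) and 0.52 higher without that array. The direction turned for Gh: chimpanzee minus cafeteria was -0.61 with all arrays and 0.66 without cafeteria batch 1 replicate 1. In the arrays labelled batch 2 alone, limma called Fshb between pellet and chimpanzee (0.34 higher on pellets, adjusted p = 0.0438) and between pellet and cafeteria (0.39 higher, adjusted p = 0.0275), and Lhb and Ghrhr between pellet and fast food (0.45 and 0.68 higher, adjusted p = 0.0337 and 0.0268). In these 3 contrasts 12351, 12464 and 17996 of the 45037 probe sets were called, and that batch holds pellet batch 2 replicate 1. The batch labels of the pellet arrays are in doubt. On the other 3 diets the SD over probe sets was 1.81 to 2.02 in labelled batch 1 and 2.01 to 2.06 in batch 2. On pellets it was 1.95 to 2.04 in labelled batch 1 and 1.58 to 1.85 in batch 2. In chimpanzee batch 1 replicate 1 (2.023) and fast food batch 1 replicate 3 (2.021) it also lay within the range of labelled batch 2. The labels of these arrays were not tested.

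Of the lists of pituitary transcription factors, pituitary receptors and pituitary hormone targets, 0 of 12, 0 of 9 and 0 of 7 measured genes passed the adjusted threshold in any of the 8 comparisons. Between human and chimpanzee diets their median log2 differences were -0.0073, -0.0030 and 0.0028, beside 0.0054 over all probe sets.

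**Figure D4:**
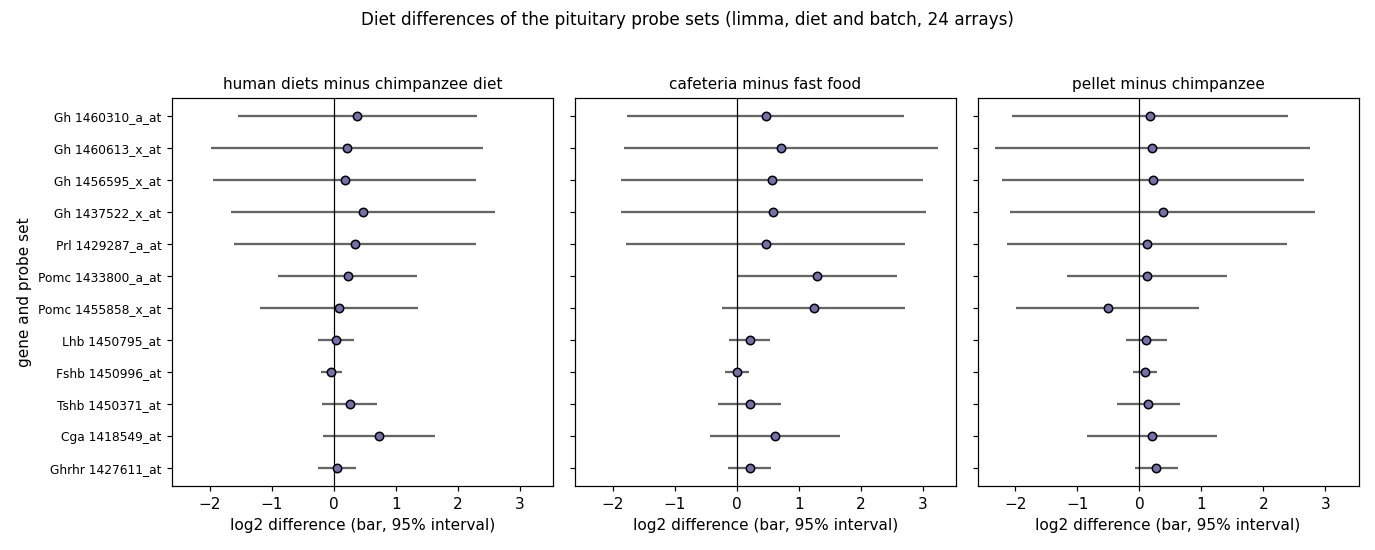
Log2 difference between diets (x axis) of the 12 pituitary probe sets (y axis), with points for the limma estimate over 24 arrays and bars for its 95% interval. All intervals include 0, and those of Gh and Prl are wide (-1.55 to 2.31 and -1.61 to 2.30 for human minus chimpanzee diet). That of Fshb, a probe set with a low median level of 2.93, is narrow (-0.21 to 0.13).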

How the data were processed

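Hemisphere RNA of 24 mice was hybridised to Affymetrix mouse genome arrays. The authors made the deposited log2 values of 45101 probe sets with the “rma” method, which log-transforms and quantile-normalizes them. Sample labels gave each array's diet, batch and replicate number. The 64 control probe sets were left out. Of the other 45037, 34945 have 1 annotated gene, 932 several and 9160 none listed. No filter on low values was applied, so that all 12 pituitary probe sets were tested. Where 1 probe set per gene was needed, that with the highest mean was used.

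Contrasts of diets were fitted in R 4.3.3 with limma 3.58.1 (diet and batch, 1 spread over 24 arrays). A probe set was called at p under 0.05 after Benjamini-Hochberg adjustment over all 45037 sets. On simulated arrays the test recovered 93% of probe sets changed by 1 log2 between the chimpanzee and fast food diets. The changed sets were drawn at random and had normal noise at their own spread. In the measured data the SE of that contrast was 1.075 for Gh (main set) and 1.087 for Prl, so that the 93% does not hold for them. Batch and replicate number did not pair arrays: deviations of arrays that share both correlated at a median of -0.03 (-0.49 to 0.41, n = 36 pairs). Members, lists and tests were chosen with earlier results of these data known. All members are named. Other named genes are the 10 most correlated with Gh or Prl, and, from the lists, those with the highest or lowest correlation, the highest level, or a deviation over 1, besides others chosen after their values were seen. Alternatives covered the filter, normalization, array weights, spread, batch term, batches, arrays, a replicate block and the methods' two-way test. Python 3.11.15 with matplotlib 3.10.9 made the plots. Precision is limited by the number of arrays.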

Additional observations from a re-analysis of the deposited data

Results flagged for a closer look

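In 21 of 48 groups (12 probe sets in 4 diets of 6 arrays each), the highest array lay apart from the other 5 by a gap above Dixon's critical value, and in 0 groups the lowest did. Chance gives about 1 in 20 groups, but the genes were chosen because single arrays stood out and probe sets of 1 gene share their arrays, so that the count is a description and was not set against that rate. Cafeteria batch 1 replicate 1 was such an array for Gh at 11.65, 11.72, 11.33 and 11.54 in its 4 probe sets, for Prl at 11.28, for Pomc at 10.47 and 10.1, for Cga at 7.99, for Tshb at 5.23, for Ghrhr at 5.15 and for Lhb at 5.14. Fast food batch 1 replicate 1 was such an array for Gh at 8.26, 8.07, 8.0 and 7.97 and for Prl at 7.98. Pellet batch 2 replicate 1 was such an array for Gh at 7.69, 8.27 and 7.84, not in the set 1456595_x_at, and for Prl at 7.57. Pellet batch 1 replicate 1 was such an array for the Pomc set 1455858_x_at at 4.13, in which pellet batch 2 replicate 1 was not raised.

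The diet differences of Fshb differed between the labelled batches (adjusted p = 0.0208 for the interaction of diet and batch in limma), as did those of 31.5% of all probe sets (44.2% at an unadjusted p under 0.05). With labels 1 and 2 swapped for pellet arrays alone, an alternative chosen after seeing the data, the adjusted interaction p of Fshb was 0.785 in limma and 0% of all probe sets were called (5.67% at an unadjusted p under 0.05). The pellet labels are in doubt but were not tested, and labelled batch 2 also holds pellet batch 2 replicate 1, which stood apart. The difference for Fshb cannot be told apart from crossed labels or from that array. Of the other 11 pituitary probe sets, 0 had an adjusted interaction p under 0.05, while Lhb and Ghrhr had unadjusted p of 0.043 and 0.0262 in limma.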

How the results depend on the processing

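No pituitary probe set was called in any of the 8 diet comparisons with the filter on low values, quantile normalization repeated, arrays centred, array weights, a trended and robust spread, no batch term, only the arrays compared, batch 1 alone, or the methods' two-way test, nor with any array left out (0 to 0 called; lowest adjusted p 0.152). The filter kept 1 probe set per gene and left 5 of the 12 pituitary sets to be tested. Fshb, Tshb and Cga, with means below the median of all probe sets, were not among them. The methods' two-way test sets aside any set whose diet effect changed between batches. A set dropped in either way could not be called, so for it the lack of a call carries no information. The replicate block (batch and replicate number) also gave 0 calls throughout. Chosen after seeing the data, leaving out both cafeteria batch 1 replicate 1 and pellet batch 2 replicate 1, or exchanging the batch labels of the pellet arrays, gave 0. Labelled batch 2 alone called 1 probe set between pellet and chimpanzee (Fshb), 1 between pellet and cafeteria (Fshb) and 2 between pellet and fast food (Lhb and Ghrhr), where 12351, 12464 and 17996 of all probe sets were called. The cause was not tested.

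Highest minus median moved to 1.33 for Ghrhr when quantile normalization was repeated. With 1 array left out it was 4.15 to 7.55 for Gh, 4.25 to 7.56 for Prl, 1.76 to 5.12 for Pomc, 1.61 to 4.56 for Cga, 1.10 to 1.71 for Tshb, 0.675 to 1.04 for Lhb, 0.336 to 0.343 for Fshb and 0.867 to 1.04 for Ghrhr. The lowest values of Gh, Prl, Pomc, Cga, Tshb and Lhb came without cafeteria batch 1 replicate 1.

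Correlation with Gh was 0.989 to 0.998 for Prl, 0.308 to 0.887 for Pomc, 0.524 to 0.850 for Lhb, 0.261 to 0.472 for Fshb, 0.155 to 0.779 for Tshb, 0.073 to 0.809 for Cga and 0.408 to 0.720 for Ghrhr with 1 array left out, and between Tshb and Cga 0.821 to 0.933. Spearman's rho was 0.923 for Prl, 0.470 for Pomc, 0.236 for Lhb, 0.472 for Tshb, 0.145 for Cga, 0.186 for Ghrhr and 0.561 between Tshb and Cga. Without the 2 arrays farthest from the Gh median, r was 0.980 for Prl, 0.578 for Pomc, 0.590 for Lhb, 0.476 for Fshb, 0.200 for Tshb, 0.115 for Cga, 0.615 for Ghrhr and 0.821 between Tshb and Cga. Without both cafeteria batch 1 replicate 1 and pellet batch 2 replicate 1, r was 0.984 for Prl, 0.002 for Pomc, 0.145 for Lhb, -0.029 for Fshb, 0.07 for Tshb, -0.086 for Cga, -0.11 for Ghrhr and 0.815 between Tshb and Cga.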
